A study of Mus musculus with 15 samples.

Results

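Immunoglobulin locus genes were examined in A20 cells, a BALB/c mouse B-cell lymphoma line, and in 4 clones of it. In these clones the transcription factor gene *Foxp1* had been mutated with CRISPR/Cas9. The members were chosen by gene symbol, which had to begin with the name of an immunoglobulin heavy, kappa or lambda segment, and by their read counts summed over all 15 libraries, which had to reach 10. Of 252 such genes listed, 207 had no count in any library, 13 had fewer than 10, and 32 were members, out of 41388 genes listed in all. The summed counts that chose the members did not use the line labels. Just outside the threshold lay *Igkj1* with 7 counts and *Igkv1-122* with 6, and just inside it *Igkv2-112* and *Igkv11-125* with 14 each and *Ighv5-2* with 15.

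The libraries were mRNA sequencing libraries of parental A20 cells (genotype given as wild type) and of clones E6.1 and E6.2, mutated in exon 6 of *Foxp1*, and of clones E7.1 and E7.2, mutated in exon 7. Each of the 5 lines had 3 libraries, taken from separate passages. Each clone was grown from an individual cell after a plasmid encoding guide RNA and Cas9 was electroporated and GFP-positive cells were sorted. Within a clone an effect of the mutation and a property of the founding cell therefore cannot be told apart. A clone taken through the same steps without a *Foxp1* mutation was not analysed here. The libraries held 26328054 to 39181530 counts (median 35586010). Levels are given as CPM, counts scaled to a library of 1000000 with TMM factors, on which scale 3 counts corresponded to 0.0751 to 0.118 CPM.

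An antibody is built from heavy and light chains. Each chain gene is assembled in the B-cell precursor by joining a variable (V) segment to a joining (J) segment, with a diversity (D) segment between them in the heavy chain, and the joined exon is then spliced to a constant (C) region. Light chains come from either the kappa or the lambda locus. A mature B-cell tumour descends from a cell that had already made these joins, so most V segments are silent in it, and transcripts from unjoined segments and constant regions, called germline transcripts, can be present besides the transcripts of the assembled genes. The heavy constant region in use can change from IgM to another class by recombination.

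The 2 V segment pairs on which the counts turned are close copies, and their germline sequences are shown so that it can be seen how few bases tell them apart. All are from the GENCODE M21 annotation of GRCm38 (the C57BL/6J reference), 5′ to 3′ on the strand of the gene, with leader and V exons joined and bases numbered from the start codon. In the kappa pair, *Igkv1-110* (chr6:68270527-68271267, plus strand) and *Igkv1-117* (chr6:68121091-68121827, plus strand), capitals mark all 10 of 359 bases at which the segments differ, and bases 60 to 359 are printed.
Igkv1-110: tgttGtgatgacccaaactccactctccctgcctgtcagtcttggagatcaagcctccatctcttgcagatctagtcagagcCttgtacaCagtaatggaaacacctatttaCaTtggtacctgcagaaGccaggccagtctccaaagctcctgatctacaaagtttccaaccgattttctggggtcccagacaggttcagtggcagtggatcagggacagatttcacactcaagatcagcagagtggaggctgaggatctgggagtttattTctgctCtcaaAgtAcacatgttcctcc
Igkv1-117: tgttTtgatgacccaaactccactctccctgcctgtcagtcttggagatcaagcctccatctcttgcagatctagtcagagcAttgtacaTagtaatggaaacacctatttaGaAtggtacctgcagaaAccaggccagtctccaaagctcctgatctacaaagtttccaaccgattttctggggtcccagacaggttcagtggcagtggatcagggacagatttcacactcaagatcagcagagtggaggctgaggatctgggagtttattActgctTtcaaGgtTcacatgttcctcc

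In the lambda pair, *Iglv2* (chr16:19260401-19260844, minus strand) and *Iglv1* (chr16:19085017-19085460, minus strand), 11 of 351 bases differ, and bases 52 to 351 are printed with the 8 of these differences that they hold in capitals.
Iglv2: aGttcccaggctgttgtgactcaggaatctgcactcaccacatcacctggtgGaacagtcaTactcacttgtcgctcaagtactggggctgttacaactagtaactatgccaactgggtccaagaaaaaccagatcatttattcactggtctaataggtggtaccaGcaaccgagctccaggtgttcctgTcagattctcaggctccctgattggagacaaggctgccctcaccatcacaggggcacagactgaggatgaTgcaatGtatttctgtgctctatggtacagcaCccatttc
Iglv1: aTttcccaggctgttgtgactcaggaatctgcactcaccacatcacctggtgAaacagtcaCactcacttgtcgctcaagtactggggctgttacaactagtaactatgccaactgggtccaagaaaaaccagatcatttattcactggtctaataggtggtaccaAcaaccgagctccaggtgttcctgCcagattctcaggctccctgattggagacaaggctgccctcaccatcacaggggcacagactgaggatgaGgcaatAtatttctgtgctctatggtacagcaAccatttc

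The identity was 97.2% in the kappa pair, with a longest run of 142 shared bases, and 96.9% in the lambda pair, with a longest run of 104. Of all stretches of 75 bases in the transcript, 31.2% of those of *Igkv1-110* and 30.9% of those of *Igkv1-117* also stood in the other gene, as did 10.3% of those of *Iglv2* and 9.46% of those of *Iglv1*. *Iglv3* and *Igkv14-111* shared none with another annotated gene. Read pairs that fell entirely in shared stretches matched both genes and were not counted for either, and a cell line from BALB/c was read against a reference of another strain, so the level of each V segment is uncertain and its name is that of a reference segment.

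The 3 kappa J segments among the members are shown because their levels moved together. They are the coding transcripts of the same annotation, 38 bases each, whereas the exons listed with the counts are 36 bases in *Igkj3* and 42 in *Igkj5*. Capitals mark positions at which the 3 do not all carry the same base. They lie at chr6:70723223-70723260, chr6:70723548-70723585 and chr6:70723886-70723923 on the plus strand, upstream of the constant region *Igkc*.
Igkj3: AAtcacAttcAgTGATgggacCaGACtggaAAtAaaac
Igkj4: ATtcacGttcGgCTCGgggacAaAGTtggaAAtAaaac
Igkj5: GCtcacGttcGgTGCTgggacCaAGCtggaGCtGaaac

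*Foxp1* itself was first examined in each library. In parental cells it stood at 102, 166 and 147 CPM. The libraries of E6.1 gave 103, 99.5 and 109 CPM and those of E6.2 gave 109, 104 and 105, which overlapped the lowest parental library and were not called (log2 fold changes -0.41 and -0.39, edgeR quasi-likelihood test with Benjamini-Hochberg adjustment, adjusted p = 0.765 and 0.417). The libraries of E7.1 gave 41.7, 64.2 and 64.3 CPM and those of E7.2 gave 37.1, 39.6 and 52.3, all below parental cells (log2 fold changes -1.29 and -1.69, adjusted p = 0.00688 and 0.00116). Transcript level does not report on a frameshift, so in the exon 6 clones it does not check the mutation. Replicate 3 of E6.2 and replicate 3 of E7.2 deviated from their own lines alike (r = 0.451 across genes between their deviations), and both were left out in an alternative fit.

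B-cell markers were abundant in every library, with 2392 to 3814 CPM summed over the 10 listed and none of the 10 at 0 throughout. Of these *Ms4a1*, which encodes a B-cell surface protein, was called lower in E6.2 (log2 fold change -0.91, adjusted p = 0.0227). The 8 T-cell markers summed to 0.91 to 2.25 CPM, with *Cd3e* and *Cd8b1* at 0 in all 15 libraries, the 6 myeloid markers to 0.571 to 8.74 CPM and the 3 erythroid markers to at most 0.696 CPM. The 7 plasma cell markers summed to 1893 to 2504 CPM in parental cells, 1323 to 2160 in E6.2 and 1974 to 3251 in the other clones, sums that *Jchain* dominates. In E6.2, 2 of the 6 plasma cell markers tested were called lower (*Irf4* and *Prdm1*, with values given further on), against 1.01% of all genes tested. An unadjusted p under 0.05 was reached by 4 of the 6, against 13.1% of all genes tested. The median log2 fold change was -1.13, while *Mzb1* (0.35) and *Xbp1* (0.21) went the other way and were not called. The part of these differences in the immunoglobulin values of E6.2 was not tested.

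Reads counted for immunoglobulin genes were a small part of all counts. Pairs that matched several genes were not counted, and the reference is of another strain. The shares below, and the comparison with *Jchain*, are therefore of counted reads only and can lie below the share in the cells. The 32 members together took 0.170 to 0.183% of all counts in parental libraries and 0.178 to 0.265% in clone libraries. The 3 libraries of E6.1 (0.211 to 0.229%) and of E7.2 (0.226 to 0.241%) lay above all 3 parental libraries, while E6.2 (0.178 to 0.265%) and E7.1 (0.180 to 0.211%) overlapped them. By comparison *Jchain*, which encodes the chain that links IgM and IgA units and is no member, alone stood at 1577 ± 275 CPM (SD, n = 3) in parental cells, against 1725 ± 91.6 CPM for all members together.

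**Figure D1:**
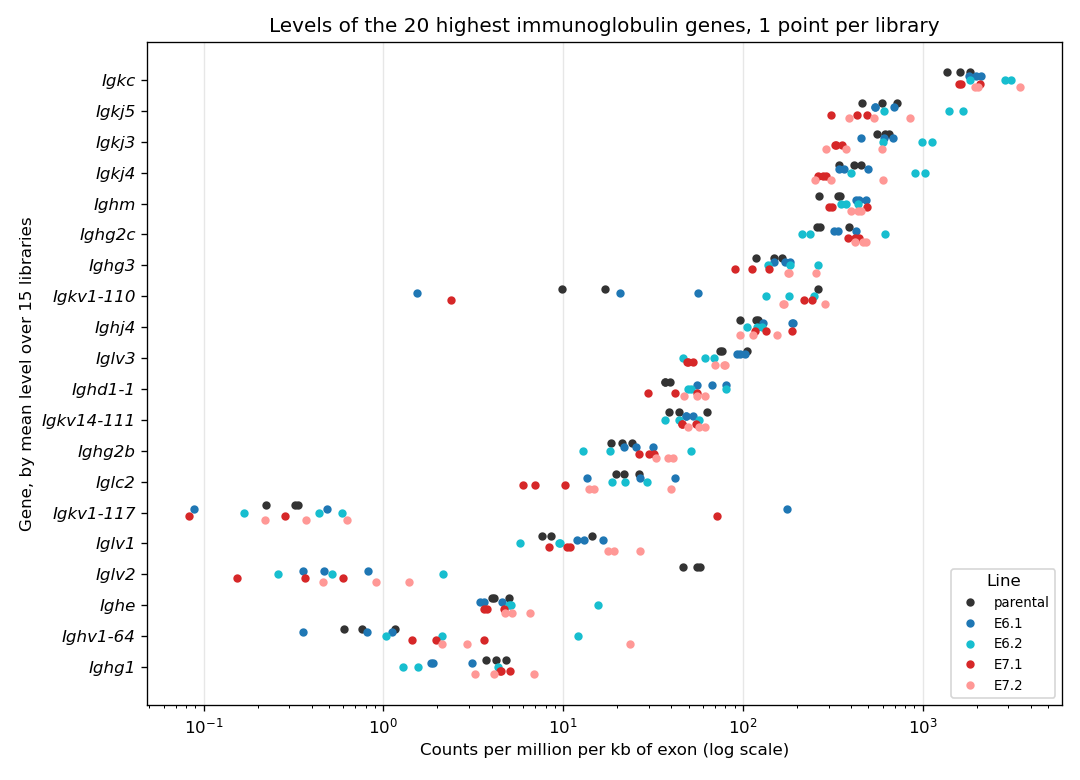
Levels of the 20 immunoglobulin genes with the highest mean, in CPM per kb of exon on a log axis, with 1 point per library coloured by line. *Igkc* stands highest at a mean of 2088, *Iglv2* is split between the 3 parental libraries and all clone libraries, and *Igkv1-110* and *Igkv1-117* spread widely within lines.

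Per kb of exon, *Igkc* was the highest member, with a mean of 2088 CPM per kb over the 15 libraries and a range of 1374 to 3501. The kappa J segments followed (*Igkj5* 684, *Igkj3* 571 and *Igkj4* 450 CPM per kb), then the heavy constant regions *Ighm* (391) and *Ighg2c* (379). *Igkj5*, *Igkj3* and *Igkj4* overlapped in their ranges over libraries, as did *Ighm* and *Ighg2c*, and the J values rest on 36 to 42 bases of annotated exon, too short for their levels per kb to be set beside those of long exons. *Ighg3* stood at 165, *Igkv1-110* at 134, *Ighj4* at 133, *Iglv3* at 73.7, *Ighd1-1* at 52.7 and *Igkv14-111* at 49.9 CPM per kb. At the other end *Igha* had a mean of 0.583 CPM per kb. The 5 lowest V segments, among them *Ighv5-2* and *Igkv2-112*, had means of at most 0.146, with single libraries up to 0.632.

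Few members were called in any clone against parental cells. Of the 32 members, 22 passed the filter on low counts and were tested among 13904 genes, and 10 were not tested. *Iglv2* was called lower in all 4 clones and *Iglv3* in E7.1, and no member was called higher in any clone. That is 2 of 22 members tested in E7.1 and 1 of 22 in each other clone. In E6.1 and E6.2, then E7.1 and E7.2, 0.324%, 1.17%, 1.22% and 0.295% of all genes tested were called in either direction, with 0.266%, 1.01%, 0.82% and 0.209% of all genes tested called lower and 0.0575%, 0.165%, 0.396% and 0.0863% called higher. All 4 comparisons share the 3 parental libraries, so that a call common to the clones rests on the same 3 values. At an unadjusted p under 0.05 the members counted 5 in E6.1 and in E7.1 and 8 in E6.2 and in E7.2, against, in the order E6.1 to E7.2, 6.71%, 13.1%, 20% and 13.3% of all genes tested. The median log2 fold change of the members was 0.03 in E6.1 and 0.40 in E6.2, and 0.05 in E7.1 and 0.38 in E7.2, against 0.00, 0.06, -0.02 and 0.00 over all genes tested. The medians of E6.2 and E7.2 include replicate 3 of each, the libraries that deviated alike, and may rest partly on them. With both left out, members of E6.2 moved either way, as *Ighg2c* from 0.22 to -0.44 and *Igha* from 1.02 to 1.44.

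By overlap, 9 of the 22 members in E7.2 had all 3 libraries above all 3 parental libraries and 1 had all 3 below, where 24.2% of all genes did not overlap. In E6.1 the numbers were 3 above and 2 below against 22.5%, in E6.2 they were 3 and 2 against 14.7%, and in E7.1 they were 2 and 5 against 32% of all genes.

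**Figure D2:**
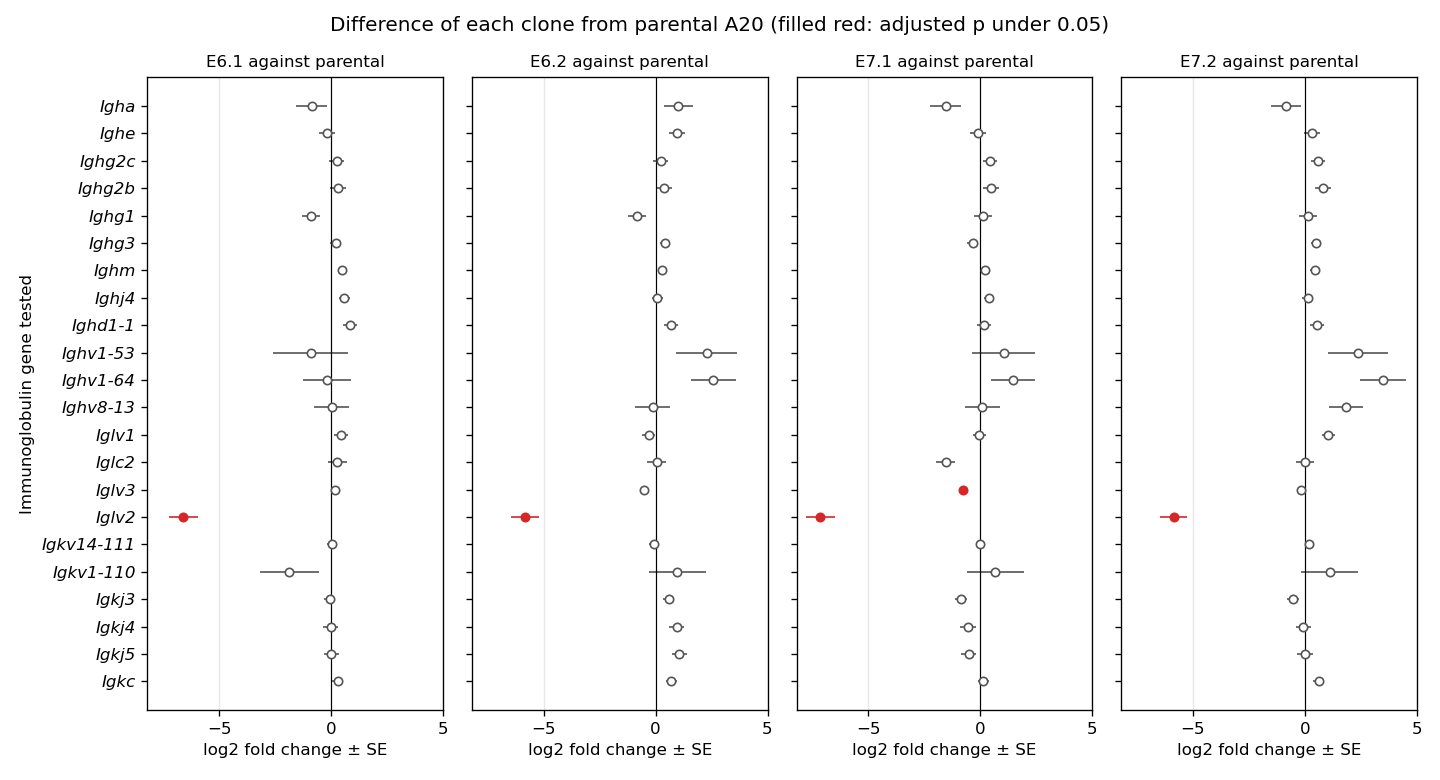
Log2 fold change of each tested immunoglobulin gene in each clone against parental A20 cells, with the standard error from the edgeR fit as a bar. Filled red points are called at an adjusted p under 0.05, namely *Iglv2* in every panel and *Iglv3* in E7.1. The widest bars belong to *Igkv1-110* and the heavy V segments, followed by *Igha* and *Iglv2*.

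The clones were then compared among themselves, without the parental libraries in the contrast. 5 members differed among the 4 clones, namely *Iglv3*, *Iglv1*, *Igkj3*, *Igkj4* and *Igkj5*, so 5 of 22 tested against 8.26% of all genes. The other members tested were not called, among them all 7 heavy constant regions, *Igkc*, *Iglc2*, *Iglv2* and both tested kappa V segments. When 1 library was left out this count ranged from 1 to 12, so each of the 5 is given with the fits in which it held.

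The lambda locus held the member that set all 4 clones apart from parental cells. Mouse lambda has only a handful of V segments, and *Iglv2*, *Iglv3* and *Iglv1* were all members together with the constant region *Iglc2*. *Iglv2* counted 668, 606 and 662 reads in the parental libraries. The clone libraries counted 9, 5 and 5 in clone E6.1, 19, 6 and 3 in clone E6.2, 2, 5 and 7 in clone E7.1 and 12, 6 and 15 in clone E7.2. No clone library came near any parental library, and the 94 reads of all 12 clone libraries together were fewer than in any parental library. In bulk RNA, fewer cells with the transcript and less of it per cell cannot be told apart.

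In CPM, *Iglv2* fell from 18.6 ± 2.10 (SD, n = 3) in parental cells to 0.191 ± 0.0837 in clone E6.1, 0.340 ± 0.356 in clone E6.2, 0.130 ± 0.0777 in clone E7.1 and 0.319 ± 0.161 in clone E7.2. The log2 fold changes were -6.59, -5.83, -7.14 and -5.86, with standard errors of 0.61 to 0.66 and adjusted p of 0.000106, 0.000124, 6.88e-05 and 0.000417. Each call held in all 15 fits made without a library. A difference among the clones in *Iglv2* was not called (adjusted p = 0.387).

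Reads of the neighbouring genes were still present in the clones. *Iglv3* ends 18722 bases from *Iglv2* and *Iglc2* lies 60050 bases away on the same side. *Iglv3* stood at 27.3, 27.9 and 38.6 CPM in parental cells and at 17.1 to 37.4 CPM in the clones, so that *Iglv2* counts were 50.0 to 74.0% of those of *Iglv3* in parental libraries and 0.294 to 2.95% in clone libraries. On the other side the olfactory receptor gene *Olfr164*, 24899 bases away, had 29 reads over the 3 parental and 172 over the 12 clone libraries. The close copy *Iglv1*, 174941 bases away, had 371 reads in parental and 1927 in clone libraries, and was called in no clone (log2 fold changes from -0.30 to 1.06).

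**Figure D3:**
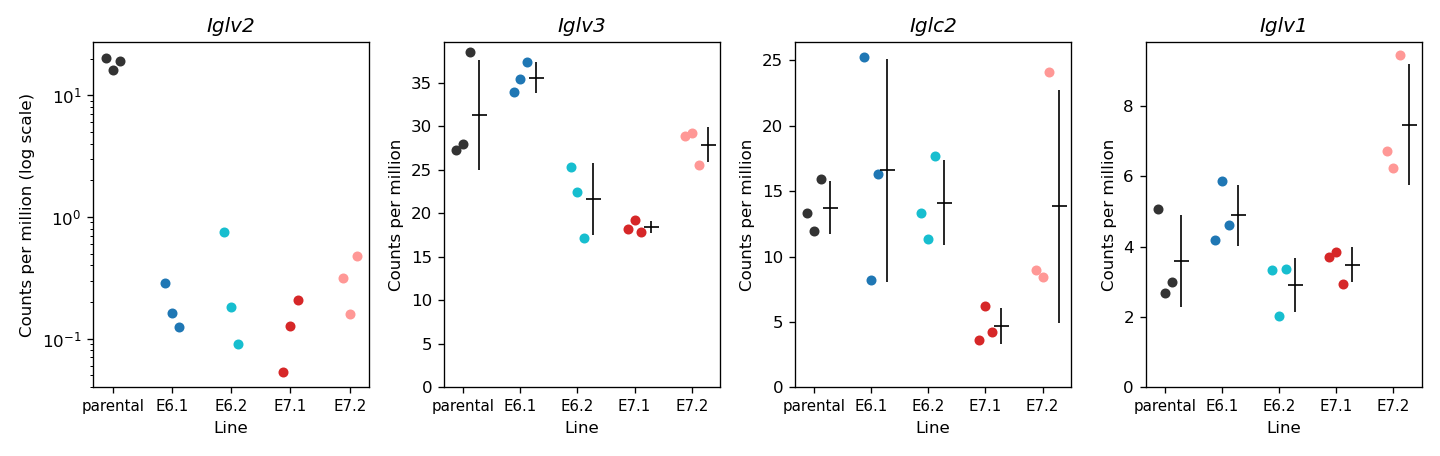
CPM of the 4 lambda locus members by line, with 1 point per library and, beside the points, the mean ± SD (n = 3). The *Iglv2* panel has a log axis and no mean, and its parental libraries lie at 16.2 to 20.2 CPM with every clone library under 1, whereas the other 3 panels start at 0.

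*Iglv3* was lower in E7.1, with 18.2, 19.3 and 17.9 CPM. All 3 values lay below every parental library, with a log2 fold change of -0.76 (SE 0.16, adjusted p = 0.0410). The call was narrow. It held in 4 of the 15 fits made without a library, those without parental replicate 1, E6.2 replicate 1, E6.2 replicate 3 or E7.2 replicate 3, and was lost in the other 11, with adjusted p up to 0.236 without parental replicate 3. E6.2 also lay below all parental libraries (25.3, 22.5 and 17.1 CPM, log2 fold change -0.53, SE 0.16), which was not called (adjusted p = 0.180). E6.1 (33.9, 35.4 and 37.4 CPM) and E7.2 (28.9, 29.2 and 25.6 CPM) overlapped parental cells. Among the clones *Iglv3* differed by 0.95 on the log2 scale between the highest, E6.1, and the lowest, E7.1 (adjusted p = 0.0118), and this held in each of the 15 fits without a library, with adjusted p up to 0.0479, but not under an added 2-fold threshold.

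*Iglc2*, a lambda constant region that pairs with *Iglv2* and its own J segment, was not called in any clone. Parental libraries held 13.3, 11.96 and 15.96 CPM. In E7.1 it stood at 3.64, 6.23 and 4.21 CPM, below all parental libraries, with a log2 fold change of -1.55 (SE 0.43) that missed the threshold (adjusted p = 0.0770). It was called in E7.1 with the DESeq2 test (adjusted p = 0.00991), the likelihood ratio test (0.0187), no filter (0.0273) or only the 2 lines in the fit (0.0279), with E6.2 replicate 3 and E7.2 replicate 3 both left out (0.0129) or without E7.2 replicate 3 alone (0.0326). In the other clones its libraries spread widely, at 25.3, 8.24 and 16.3 CPM in E6.1, 13.3, 11.3 and 17.7 in E6.2 and 8.95, 8.42 and 24.2 in E7.2, and their ranges overlapped that of parental cells.

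*Iglv1* was highest in E7.2, at 6.71, 6.24 and 9.43 CPM against 5.08, 2.67 and 3.00 in parental cells. The groups did not overlap, and the log2 fold change of 1.06 (SE 0.29) was not called (adjusted p = 0.185, 0.0258 with DESeq2). E6.2 was lowest, with 3.35, 2.03 and 3.37 CPM. Among the clones the gene differed by 1.36 on the log2 scale (adjusted p = 0.0322), a call that held in 7 of the 15 fits and otherwise stayed at or under an adjusted p of 0.0714.

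The kappa V segments showed a different picture, in which libraries of the same line disagreed. *Igkv1-110* counted 203, 133 and 3231 reads in the parental libraries, 235, 17 and 809 in clone E6.1, 1223, 2132 and 2964 in clone E6.2, 32, 3394 and 2622 in clone E7.1 and 2317, 2249 and 3192 in clone E7.2. In CPM the highest library exceeded the lowest 26.5-fold in parental cells, 36.4-fold in E6.1 and 101-fold in E7.1, against 1.85-fold in E6.2 and 1.71-fold in E7.2. Of 10203 genes with a mean count of at least 100, 18 in parental cells, 19 in E6.1 and 4 in E7.1 varied more between the libraries of the line, where the median gene varied 1.27-fold, 1.16-fold and 1.24-fold. In E6.2 and E7.2 there were 3002 and 2075 such genes, with medians of 1.53-fold and 1.30-fold.

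No clone was called for *Igkv1-110* (log2 fold changes -1.87, 0.96, 0.68 and 1.11, standard errors 1.27 to 1.32, adjusted p from 0.704 to 0.925). The values rested on parental replicate 3, without which clone E6.1 had 0.97, clone E6.2 had 3.798, clone E7.1 had 3.52 and clone E7.2 had 3.95, so that the direction in E6.1 turned, again with no call. With such standard errors a change of several-fold was not detectable.

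*Igkv1-117*, the copy that differs from it at 10 bases, had 1 to 7 reads in 13 libraries. In the remaining 2 libraries it had 1926 reads (E6.1 replicate 2) and 969 reads (E7.1 replicate 1). Those are the 2 libraries in which *Igkv1-110* was lowest, at 17 and 32 reads. In the other libraries of E6.1 and E7.1 *Igkv1-110* was the higher of the pair, as in all libraries of parental cells, E6.2 and E7.2. The sum of both segments still ran from 3.63 CPM (parental replicate 2) to 103 CPM (E7.2 replicate 3), so the low parental libraries 1 and 2 and E6.1 replicate 1 were low in both. *Igkv1-117* did not pass the filter, and without a filter its adjusted p was 0.0907 in E6.1 and 0.0788 in E7.1.

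**Figure D4:**
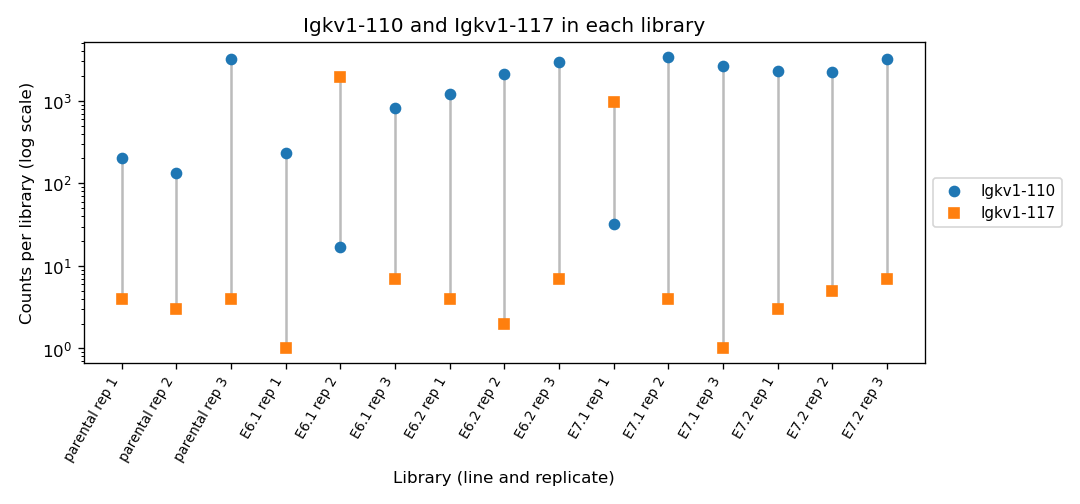
Counts of *Igkv1-110* (circles) and *Igkv1-117* (squares) in each of the 15 libraries on a log axis, joined by a grey line per library. *Igkv1-117* lies at 1 to 7 counts except in E6.1 replicate 2 and E7.1 replicate 1, where the order of the segments is turned.

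*Igkv14-111*, next to it in the list of V members, varied little in the same libraries. It stood at 17.2 ± 4.54 CPM in parental cells, 17.6 ± 0.849 in clone E6.1, 16.3 ± 3.62 in clone E6.2, 17.3 ± 1.82 in clone E7.1 and 19.7 ± 2.12 in clone E7.2 (SD, n = 3), and all 4 clones overlapped parental cells. The other 4 kappa V members, *Igkv9-124*, *Igkv14-126*, *Igkv11-125* and *Igkv2-112*, had 14 to 23 reads each over all libraries. All 7 lie within 375091 bases on chromosome 6, at chr6:67896177-68271267.

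*Igkc*, the kappa constant region, varied less than *Igkv1-110* between the libraries of parental cells, of E6.1 and of E7.1. It stood at 596, 444 and 520 CPM in parental cells, 684, 585 and 639 in clone E6.1, 930, 590 and 999 in clone E6.2, 528, 671 and 513 in clone E7.1 and 658, 631 and 1131 in clone E7.2. The E7.2 libraries lay above all parental libraries and the other clones overlapped them, with log2 fold changes of 0.29, 0.69, 0.13 and 0.63 (standard errors 0.25) and adjusted p of 0.268 or more. Without E7.2 replicate 3 the value in E7.2 was 0.35 (adjusted p = 0.559). The *Igkv1-110* and *Igkv1-117* counts together were 0.818 to 18.1% of those of *Igkc* across the 15 libraries.

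The kappa J segments *Igkj3*, *Igkj4* and *Igkj5* moved together from library to library (Pearson r of 0.871 to 0.961 over 15 libraries on log2 CPM, a description of exons that lie side by side in the same libraries). They were high in 2 of the 3 libraries of E6.2. *Igkj5* stood at 25.01, 30.1 and 19.2 CPM in parental cells, 23.0, 22.8 and 29.3 in clone E6.1, 70.3, 25.5 and 58.7 in clone E6.2, 20.6, 13.0 and 18.2 in clone E7.1 and 22.7, 16.4 and 35.9 in clone E7.2. E6.2 replicate 2 lay within the parental range while the other 2 lay above every other library. The log2 fold change of *Igkj5* in E6.2 was 1.06 (SE 0.34, adjusted p = 0.217), and without replicate 2 of that clone it was 1.37 and called (adjusted p = 0.0406).

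*Igkj3* was lowest in E7.1, at 11.8, 12.8 and 11.7 CPM against 22.3, 23.4 and 20.002 in parental cells. The groups did not overlap, and the log2 fold change of -0.86 (SE 0.26) was not called (adjusted p = 0.0961, 0.0330 with DESeq2, 0.0490 without E7.2 replicate 3 and 0.0159 with E6.2 replicate 3 and E7.2 replicate 3 left out). *Igkj4* in E7.1 also lay below all parental libraries, with 11.0, 10.01 and 10.6 CPM against 17.3, 15.8 and 13.1.

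Among the clones the spread from highest to lowest was 1.44 for *Igkj3*, 1.49 for *Igkj4* and 1.58 for *Igkj5* on the log2 scale, with adjusted p of 0.0152, 0.0460 and 0.0382. The highest clone was E6.2 and the lowest E7.1 for all 3. The *Igkj3* call held in 13 of the 15 fits without a library and was lost without E6.2 replicate 1 or E7.1 replicate 3, where adjusted p reached 0.0511. The *Igkj4* call held in 3 fits (without parental replicate 1, E6.2 replicate 2 or E7.2 replicate 3) and the *Igkj5* call in 5 (the same and without parental replicate 3 or E7.2 replicate 2), with adjusted p otherwise up to 0.135 and 0.138. With E6.2 replicate 3 and E7.2 replicate 3 both left out all 3 were called, with adjusted p of 0.00452, 0.0175 and 0.0233. The summed J counts were 5.33 to 15.6% of those of *Igkc*. Of the other kappa J segments, *Igkj1* had 7 reads and *Igkj2* none over all libraries.

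**Figure D5:**
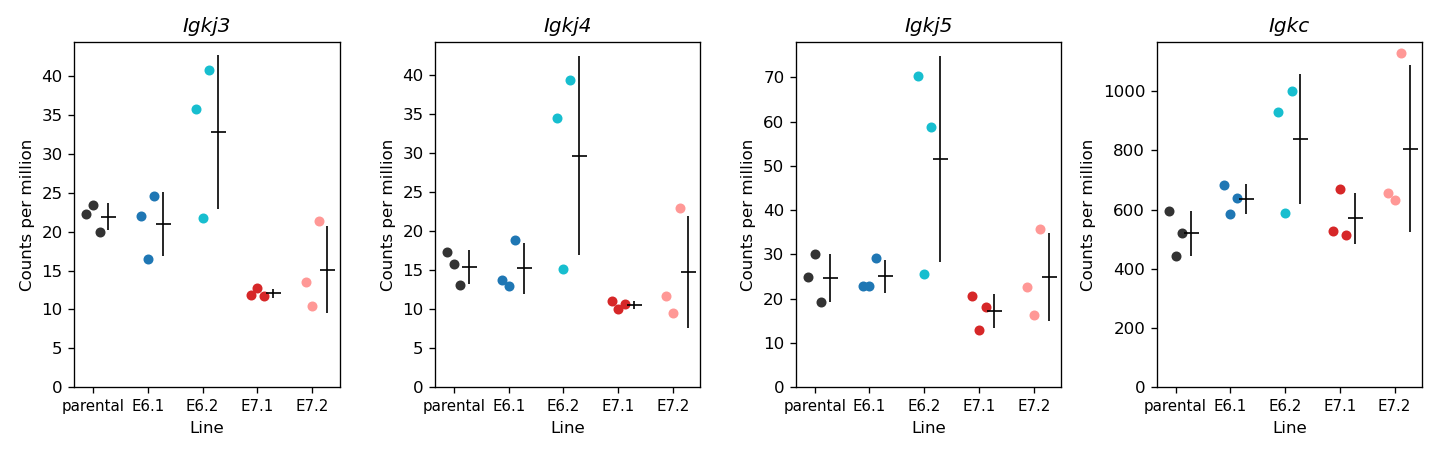
CPM of the 3 kappa J members and of the kappa constant region *Igkc* by line, with 1 point per library and the mean ± SD (n = 3) beside the points, on axes that start at 0. E6.2 replicates 1 and 3 lie above all other libraries for the J segments, and E7.2 replicate 3 is the highest library for *Igkc* at 1131 CPM.

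All 7 heavy constant regions listed were members and none was called in any clone. The reference strain carries *Ighg2c* where BALB/c mice carry *Ighg2a*, and A20 is known as an IgG2a kappa lymphoma, so the reads listed under *Ighg2c* were matched to the C57BL/6 gene of that pair. *Ighg2c* stood at 470, 326 and 312 CPM in parental cells, 411, 516 and 391 in clone E6.1, 285, 259 and 746 in clone E6.2, 535, 510 and 466 in clone E7.1 and 508, 588 and 567 in clone E7.2. E7.2 lay above all parental libraries, and its log2 fold change of 0.59 (SE 0.32) was not called (adjusted p = 0.429). E6.2 held both the lowest and the highest library, and of the fits that left out 1 library, only that without E6.2 replicate 3 called the gene among the clones (adjusted p = 0.0147, against 0.724 with it).

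*Ighm*, the constant region of IgM, overlapped *Ighg2c* in its range per kb and stood at 396, 516 and 500 CPM in parental cells. The libraries of E6.1 (721, 632 and 655 CPM), E6.2 (651, 521 and 554) and E7.2 (654, 671 and 595) all lay above the parental libraries, and those of E7.1 (725, 468 and 448) overlapped them. The log2 fold changes were 0.22 in E7.1, 0.44 in E7.2, 0.29 in E6.2 and 0.51 in E6.1, with standard errors of 0.19 and adjusted p of 0.350 to 0.554, so none was called. The ratio of *Ighm* to *Ighg2c* per kb ran from 0.606 (E6.2 replicate 3) to 1.86 (E6.2 replicate 1).

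*Ighg2b* reads were 5.02 to 7.25% of *Ighg2c* reads in all 15 libraries, and the levels of both moved together (r = 0.966 on log2 CPM over 15 libraries). The genes are paralogs. In the reference, 0.803% of the 75-base stretches of *Ighg2b* and 0.526% of those of *Ighg2c* stood in another constant region, and pairs entirely within such stretches were not counted. Whether reads of the BALB/c gene *Ighg2a* were counted for *Ighg2b* was not tested. Of the fits that left out 1 library, only that without E6.2 replicate 3 called *Ighg2b* in E7.2 (adjusted p = 0.0410, against 0.364 with it) and among the clones (0.00942 against 0.643).

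*Ighg3* stood at 118 to 165 CPM in parental cells, 148 to 180 in clone E6.1, 136 to 260 in clone E6.2, 90.1 to 139 in clone E7.1 and 177 to 254 in clone E7.2. E7.2 lay above all parental libraries (log2 fold change 0.51, SE 0.23, adjusted p = 0.373, and 0.35 and 0.599 without E7.2 replicate 3). *Ighg1* stood at 1.84, 3.04 and 1.80 CPM in E6.1 against 4.72, 4.14 and 3.61 in parental cells, with no overlap, and was not called (log2 fold change -0.90, SE 0.41, adjusted p = 0.728). In E6.2 it stood at 1.26, 1.51 and 4.21 CPM, and without replicate 3 of that clone it was called, with a log2 fold change of -1.56 and adjusted p = 0.0482, against -0.83 and 0.406 with it.

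*Ighe*, the IgE constant region, was at 4.68 to 8.88 CPM in 14 libraries and at 21.4 CPM in E6.2 replicate 1. *Igha*, that of IgA, was low everywhere, with 5 to 64 reads per library, the highest again in E6.2 replicate 1. Neither was called in a clone (adjusted p from 0.242 to 0.991), and of the fits that left out 1 library only that without E6.2 replicate 3 called them among the clones, with adjusted p of 0.0249 and 0.0170.

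Only 1 D segment and 2 heavy J segments had reads enough to be members. *Ighd1-1* (chr12:113482170-113482192, minus strand) and *Ighj4* (chr12:113428514-113428567, minus strand) are printed here because they were the D and heavy J segments tested.
Ighd1-1: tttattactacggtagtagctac
Ighj4: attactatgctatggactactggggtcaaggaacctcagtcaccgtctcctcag

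*Ighj4* stood at 5.18 to 6.53 CPM in parental cells and was above them in all 3 libraries of E6.1, at 10.2, 6.97 and 10.3 CPM (log2 fold change 0.60, SE 0.24, adjusted p = 0.595). *Ighd1-1* stood at 0.844 to 0.908 CPM in parental cells and above that in every library of E6.1 (1.28 to 1.85), E6.2 (1.14 to 1.85) and E7.2 (1.08 to 1.41). Its log2 fold changes of 0.85, 0.68 and 0.54 there were not called (adjusted p = 0.551, 0.385 and 0.461), and it moved with *Ighm* over the 15 libraries (r = 0.804 on log2 CPM). *Ighj3* had 48 reads in all, and *Ighj1* and *Ighj2* had none.

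Few reads were counted for heavy V segments in any line, while the heavy constant regions summed to 939 to 1623 CPM per library. Whether reads of the assembled heavy V exon were missed against a reference of another strain was not tested. The 7 heavy V members together counted 26, 38 and 42 reads in parental libraries, 29, 38 and 15 in clone E6.1, 32, 22 and 227 in clone E6.2, 33, 94 and 47 in clone E7.1 and 85, 66 and 398 in clone E7.2. The 2 high libraries are E6.2 replicate 3 and E7.2 replicate 3, those that also deviated alike across genes. *Ighv1-64* carried most of this, with 141 and 259 reads in these 2 libraries and 5 to 50 in the other 13, and *Ighv1-53* had 39 and 45 against 0 to 15. *Ighv8-13*, *Ighv8-9*, *Ighv1-74* and *Ighv1-63* had at most 60, 15, 13 and 9 reads in any library.

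*Ighv1-64* had a log2 fold change of 3.49 (SE 1.02) in E7.2 and of 2.59 (SE 1.00) in E6.2, neither called (adjusted p = 0.209 and 0.299, and 0.0127 for E7.2 with DESeq2). With the 2 libraries left out the values were 1.61 and 0.88 (adjusted p = 0.139 and 0.402). In E7.1 its 0.509, 1.28 and 0.686 CPM lay above the 0.212 to 0.408 CPM of parental cells (log2 fold change 1.47, SE 1.00, adjusted p = 0.432, and 0.0649 with the 2 libraries left out of the shared fit). Of the 7 heavy V members 6 lie within 644678 bases at chr12:115158403-115803080, and *Ighv5-2* lies alone at the end of the V array near the D segments. *Ighv5-2* had 3 to 5 reads in each parental library and 0 to 2 in each clone library, which is at or near the floor of 3 counts. It reached the threshold of 10 summed counts only through its parental reads, so this contrast is partly set by the choice of members.

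Genes that act on immunoglobulin loci or chains were listed in 4 groups of 36 genes, of which 32 were tested. None was called in E6.1, E7.1 or E7.2, where an unadjusted p under 0.05 was reached by 4 lower genes in E6.1, 4 higher and 2 lower in E7.1, and 3 higher and 1 lower in E7.2, while 6.71%, 20% and 13.3% of all genes tested reached it in either direction. In E6.2 *Irf4* and *Prdm1* were called lower and none higher, so 2 of 32 against 1.17% of all genes, and 1 higher and 11 lower genes had an unadjusted p under 0.05, as had 13.1% of all genes.

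*Irf4*, a transcription factor that acts on light-chain enhancers and in plasma cell formation, stood at 16.4, 16.3 and 9.86 CPM in E6.2 against 48.8, 37.4 and 46.2 in parental cells (log2 fold change -1.64, SE 0.25, adjusted p = 0.00333). *Prdm1*, the Blimp-1 gene that drives the switch from surface to secreted antibody, stood at 1.54, 2.15 and 1.98 CPM against 12.9, 9.40 and 11.6 (log2 fold change -2.58, SE 0.46, adjusted p = 0.0108). For both genes no E6.2 library overlapped parental cells. Both regulators differed among the clones (adjusted p = 0.00221 and 0.0227).

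In the group of chain partners and secretion, *Jchain*, chosen after its values were seen, was below all parental libraries in E6.2 (859, 1056 and 1156 CPM against 1371 to 1889), with a log2 fold change of -0.62 that was not called (adjusted p = 0.177). Of the 4 surrogate light chain genes, which act in B-cell precursors, *Vpreb2* was at 0 in all libraries and the 4 summed to at most 2.14 CPM. The 15 transcription factors of the loci summed to 3799 to 5101 CPM over all libraries.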

How the data were processed

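The deposited files held 1 table of whole-number counts per library, which the authors made with featureCounts 1.5.0 on paired reads against a GRCm38 annotation (per the file headers). HISAT, SAMtools and the build mm10 are named in the submitters' processing notes, with no versions. The header gives no strand option and no option to count read pairs that map to several places or overlap several genes, so such pairs were not counted. Read length is not given in the sources used here. All 92 spike-in rows held 0 counts.

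Symbols were matched by Ensembl gene ID, with 40254 of 41388 genes matched. Exon positions and lengths of the counted genes came from the deposited count files, and biotypes and sequences from GENCODE M21. No exon of a member overlapped another listed gene. The members and lists were chosen with earlier results of these data known. Named with values were members called in a clone or among clones, all constant regions, all lambda members and the 5 heavy and 5 kappa V segments with the highest mean CPM per kb. Other genes named, such as neighbours of *Iglv2*, were chosen after their values were seen.

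Counts were fitted with edgeR 4.0.16 in R 4.3.3 (filterByExpr, TMM, glmQLFit and glmQLFTest) on all 15 libraries with no factor but line. Contrasts set each clone against parental cells, and the 4 clones with each other in 1 test of 3 contrasts. Genes were called at a Benjamini-Hochberg adjusted p under 0.05 over all 13904 genes tested. Standard errors were the log2 fold change divided by the square root of F. The alternatives were DESeq2 1.42.0, DESeq2 size factors, TMM without immunoglobulin genes, a likelihood ratio test, no filter, an added 2-fold threshold, only the lines compared, a replicate block, leaving out each library, and leaving out E6.2 replicate 3 and E7.2 replicate 3 together. The fit was tested on simulated data before use, where it recovered 96 of 200 changed genes and called 7 unchanged ones. A gene that was not called may therefore still have changed. Library pairs within a line differed by more than sampling noise, so none was counted as a duplicate. The replicates came from separate passages of the same line, so p-values measure the spread between passages. Promoter and protein sequences of the members were not analysed here.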

Additional observations from a re-analysis of the deposited data

Results flagged for a closer look

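5 immunoglobulin genes were singled out because their level differed among the 4 clones by the test of that difference itself (edgeR quasi-likelihood test, adjusted over all genes tested), where 8.26% of all genes tested did. *Iglv3* (adjusted p = 0.0118) was highest in E6.1, at 33.9 to 37.4 CPM, and lowest in E7.1, at 17.9 to 19.3 CPM. *Iglv1* (adjusted p = 0.0322) was highest in E7.2, at 6.24 to 9.43 CPM, and lowest in E6.2, at 2.03 to 3.37 CPM. The kappa J segments *Igkj3* (adjusted p = 0.0152), *Igkj5* (adjusted p = 0.0382) and *Igkj4* (adjusted p = 0.0460) were each highest in E6.2 and lowest in E7.1. The J segments lie side by side and their levels moved together, so they are not 3 independent results. With 3 libraries in each group, single genes were not tested for an outlying sample.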

How the results depend on the processing

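*Iglv2* was called lower in all 4 clones under every alternative run. No result changed sign with a call, and DESeq2 size factors and TMM without the immunoglobulin genes changed no call. The number of members called in E6.2 was 1, and 2 with E6.2 replicate 3 and E7.2 replicate 3 both left out. In E7.1 it was 2, and 4 with DESeq2, with the likelihood ratio test and with those libraries left out, which added *Iglc2* and *Igkj3*, 3 without a filter and with only the lines compared, and 1 with a 2-fold threshold or a replicate block. In E7.2 it was 1, and 3 with DESeq2 and 2 with the likelihood ratio test. Among the clones it was 5, and 9 without a filter, 11 with DESeq2, 10 with the likelihood ratio test, 11 with both libraries left out, 3 with only the clones in the fit and 4 with a 2-fold threshold, which removed *Iglv3*. Leaving out 1 library gave 1 to 1 called in E6.1, 1 to 2 in E6.2, 1 to 4 in E7.1, 1 to 2 in E7.2 and 1 to 12 among the clones (12 without E6.2 replicate 3). The causes were not tested.

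With the replicate block the adjusted p of *Iglv3* in E7.1 was 0.0601, and the block moved no other call. Same-numbered libraries of a clone and of parental cells did not deviate together (r over 0.1 in 4 of 12 pairs, from -0.147 to 0.262), so the numbers were not taken to pair clone with parental libraries, and among clone libraries E6.2 replicate 3 and E7.2 replicate 3 correlated at 0.451. With only the lines compared, its adjusted p was 0.0550. Low counts limit the heavy V segments and the 10 members not tested, most of which had counts at or near the floor of 3 per library.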
